A study of Rattus norvegicus with 145 samples.

Results

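Striatum of 24-month-old Long Evans rats carrying 1 Q130 knock-in allele was compared with striatum of wild-type rats of the same age by bulk RNA sequencing. The comparison held 11 of the 145 libraries of the series, chosen by their labels alone. There were 7 heterozygous knock-in (KI) animals, 3 female and 4 male, and 4 wild-type (WT) animals, 2 female and 2 male. Each library came from its own animal and is named here by genotype, sex and number, for example KI F1 or WT M2. The same 11 animals also gave a cortex and a cerebellum library. Striatum of 20 other animals at 19 months and of 20 others at 10 months, with 10 of each genotype at each age, served for comparison. The number of founders of the knock-in line and each animal's repeat length are not stated in its labels.

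An expanded CAG repeat in the gene for huntingtin underlies Huntington's disease and lengthens a glutamine tract in the protein. The striatum is the brain region that degenerates most in the disease. Most of its neurons are GABAergic medium spiny projection neurons, which receive dense glutamatergic input from the cortex and dopaminergic input from the midbrain. Loss of transcripts that mark these projection neurons is a known feature of patient tissue and of other animal models. In a knock-in animal the mutation sits in the animal's own huntingtin gene, under that gene's own promoter.

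The 11 libraries held between 27.0 and 32.1 estimated counts each in units of 1000000. KI M4 stood farthest from the other libraries, with a mean Spearman correlation of 0.966 over tested genes. WT F2 followed at 0.978 and WT F1 at 0.979, and the other 8 libraries lay between 0.980 and 0.986. The first principal component carried 31.2% of the variance and placed KI M4, WT F2 and KI M1 at one end and WT F1 at the other, so it did not follow genotype. The deposited tables name genes only by Ensembl identifier, and 0 of 32883 identifiers could be matched to a symbol. Huntingtin itself and the named markers of striatal cell types could therefore not be singled out among the tested genes. Gene groups were formed from the regional expression of the identifiers instead.

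No gene was called as different between KI and WT striatum at 24 months. The edgeR quasi-likelihood test, with sex as a covariate, called 0 of 15833 genes (0.00%) at an adjusted p under 0.05, and the smallest adjusted p was 0.998. At an unadjusted p under 0.05 there were 154 genes higher in KI (0.973%) and 316 lower (2.00%). Together these 470 were 2.97% of genes, below the share that a threshold of 0.05 passes where no gene differs. The median log2 difference over all genes was 0.01, the central 90% of genes lay between -0.41 and 0.45, and the median standard error of a gene was 0.157. DESeq2 called 5 genes on the same libraries, and limma-trend on the length-scaled values called 0. In that last fit the split at an unadjusted p under 0.05 turned to 554 genes higher and 108 lower, while the median over all genes moved to 0.11.

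Among genes lower in KI, ENSRNOG00000011073 had the smallest p. Its level in CPM (counts scaled to a library total of 1000000) was 89.9 in KI F1, 88.1 in KI F2, 84.6 in KI F3, 80.6 in KI M1, 100.3 in KI M2, 59.6 in KI M3 and 73.3 in KI M4. In WT it was 153 in F1, 110 in F2, 142 in M1 and 127 in M2. Every KI library lay below every WT library. The KI mean was 82.3 ± 13.0 CPM (SD, n = 7) and the WT mean 133 ± 18.6 CPM (SD, n = 4). The log2 difference was -0.69 ± 0.135 (SE), with a KI level at 62.0% of WT, and the adjusted p of the edgeR test was 0.998. DESeq2 gave it an adjusted p of 0.0292. When all striatum libraries of 10, 19 and 24 months shared 1 edgeR fit, it was the one gene called for the 24-month contrast, 1 of 16248 tested (0.00615%), with an adjusted p of 0.00248.

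The gene ENSRNOG00000011096 had the smallest p among genes higher in KI with a mean of at least 1 on the log2 CPM scale. Its CPM was 18.9 in KI F1, 17.9 in KI F2, 15.3 in KI F3, 10.7 in KI M1, 12.9 in KI M2, 19.0 in KI M3 and 14.8 in KI M4. The WT libraries held 7.0 in F1, 11.7 in F2, 8.58 in M1 and 6.94 in M2. KI M1 lay below WT F2, and the other 6 KI libraries lay above all 4 WT libraries. The log2 difference was 0.89 ± 0.182 (SE), with an edgeR adjusted p of 0.998 and a DESeq2 adjusted p of 0.0292. Next in order was ENSRNOG00000010694, with 13.4, 11.7 and 10.2 CPM in the 3 KI females and 10.1, 16.4, 12.8 and 8.53 CPM in KI M1 to M4. WT F1 and F2 held 8.16 and 5.86 CPM of this gene, and WT M1 and M2 held 6.08 and 6.29 CPM. All 7 KI libraries were above all 4 WT libraries, with the lowest KI value close to the highest WT value. Its log2 difference was 0.85 ± 0.185 (SE), with an edgeR adjusted p of 0.998 and a DESeq2 adjusted p of 0.0438.

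Second by p among genes lower in KI with a mean of at least 1 on the log2 CPM scale was ENSRNOG00000014426. It was scarce, at 2.06, 1.80 and 1.83 CPM in the KI females and 1.21, 1.17, 1.75 and 1.54 CPM in KI M1 to M4. WT F1 held 1.97, WT F2 4.30, WT M1 3.34 and WT M2 2.76 CPM. WT F1 lay within the KI range and the other 3 WT libraries lay above it. The log2 difference was -0.93 ± 0.225 (SE), with an edgeR adjusted p of 0.998. It shrank to -0.35 when 1 was added to the length-scaled values before taking logs.

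**Figure D1:**
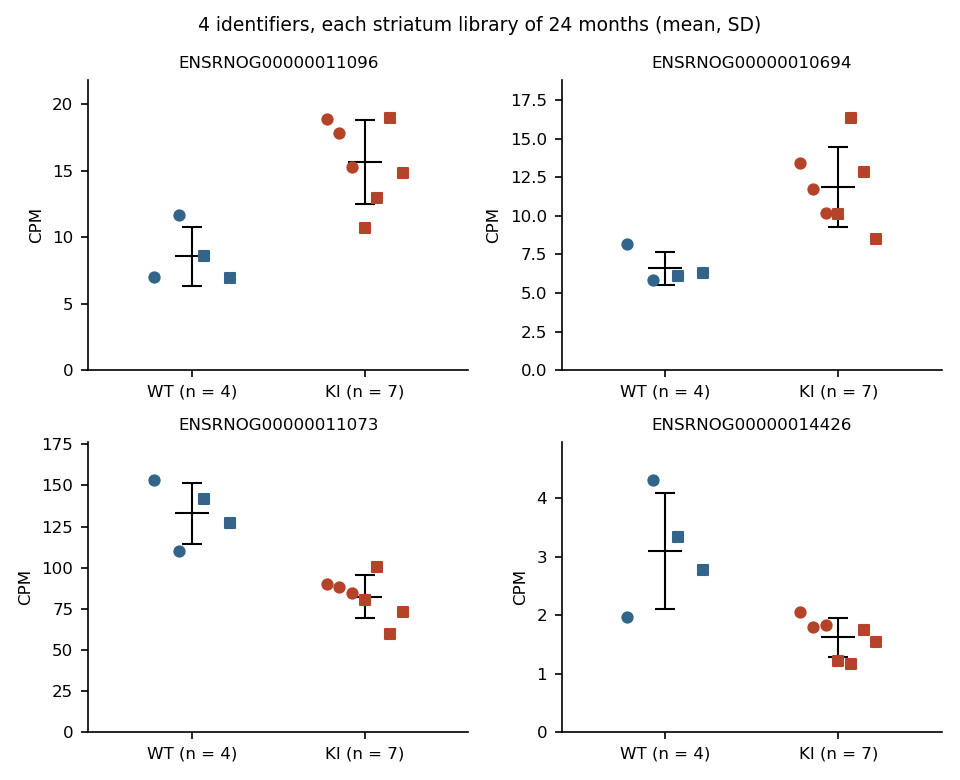
Level of 4 identifiers in CPM (vertical axis, linear, from 0) in each striatum library of 24 months. Circles are females, squares males, and bars give the mean and SD of 4 WT and 7 KI animals. The groups are apart for ENSRNOG00000011073 and ENSRNOG00000010694 and overlap by 1 library for the other two.

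These 4 identifiers behaved differently at other ages and in other regions. ENSRNOG00000011073 passed the edgeR test at 10 months, with a log2 difference of -0.46 ± 0.0627 (SE, adjusted p = 0.00687), and at 19 months, with -0.55 ± 0.0885 (adjusted p = 0.0254). In the 24-month animals its difference was -0.71 ± 0.122 in cortex (adjusted p = 0.768) and -0.47 ± 0.0553 in cerebellum, where it was called (adjusted p = 0.000706). The striatal difference of 24 months thus had the direction seen at younger ages and in the other regions of the same brains. Its estimate was larger in size than those of 10 and 19 months and of cerebellum. The contrast of 24 against 19 months was -0.14 ± 0.158 (SE). Striatum against cortex gave 0.03 ± 0.209, and striatum against cerebellum -0.24 ± 0.131. The edgeR test called this gene in none of these contrasts. For ENSRNOG00000010694 the log2 difference was 0.20 ± 0.136 at 10 months, 0.53 ± 0.117 at 19 months (edgeR adjusted p = 0.723) and, in the 24-month animals, -0.02 ± 0.0727 in cortex and 0.34 ± 0.191 in cerebellum. ENSRNOG00000011096 stood at -0.08 ± 0.204 at 10 months and 0.39 ± 0.224 at 19 months, and at 0.33 ± 0.254 in cortex and 0.07 ± 0.316 in cerebellum. ENSRNOG00000014426 was at 0.32 ± 0.189 at 10 months and -0.10 ± 0.193 at 19 months, and so did not share the 24-month direction at 10 months. It was at -0.21 ± 0.135 in cortex and -0.20 ± 0.113 in cerebellum.

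**Figure D2:**
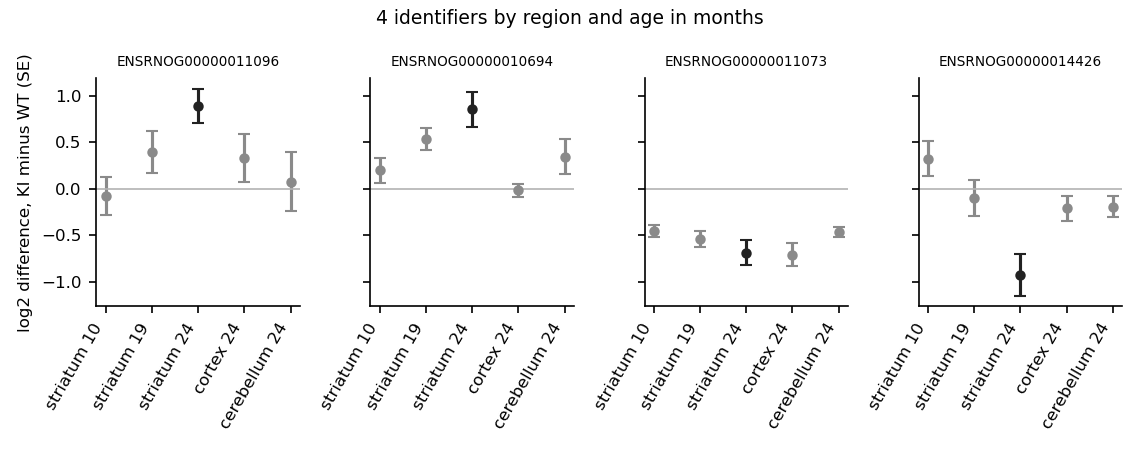
Log2 difference, KI minus WT (vertical axis), of the same 4 identifiers in striatum at 10, 19 and 24 months and in cortex and cerebellum at 24 months, with bars for the SE of the edgeR fit. Black points are the 24-month striatum. ENSRNOG00000011073 is below 0 in all 5 comparisons.

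A pair of genes had risen in KI striatum at 19 months and can be read again at 24 months in other animals. The one with the smaller p at 19 months, where its log2 difference was 0.60 ± 0.0874 (SE, edgeR adjusted p = 0.0152), held 53.7 to 98.1 CPM in KI at 24 months, with a median of 74.96. Its 4 WT values ran from 37.2 to 47.0 CPM. All KI libraries lay above all WT libraries. The log2 difference at 24 months was 0.76 ± 0.184 (SE), seventh in order of p with an edgeR adjusted p of 0.998, against -0.02 ± 0.138 at 10 months. In the same animals it was -0.39 ± 0.186 in cortex and 0.49 ± 0.181 in cerebellum. This gene is striatum-enriched in WT animals, at 41.7 CPM in striatum against 8.32 in cortex. The other gene that rose at 19 months (log2 difference 0.92 ± 0.149) had a difference of 0.10 ± 0.211 at 24 months and so was not apart from 0 by its standard error.

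Genes that mark striatal tissue were lower in the KI group as a whole, although none was called. A gene was taken as striatum-enriched where the WT libraries of 19 months gave it at least 1 CPM in striatum and at least 4-fold more than in both cortex and cerebellum. No library of 24 months entered that definition. It gave 276 genes, of which 275 were tested at 24 months. Of these, 246 (89.5%) had a log2 difference below 0, against 47.2% of all genes tested. Their median log2 difference was -0.45 and the middle 50% lay between -0.62 and -0.24. On the length-scaled values, where the median of all genes was 0.11 and 0.09, it was nearer to 0, at -0.29 with 0.1 added before logs and -0.22 with 1 added. At an unadjusted p under 0.05, 31 of the 275 were lower (11.3%, against 2.00% of all genes) and 1 was higher (0.364%, against 0.973%). In bulk tissue, fewer cells of a type, less RNA per cell and a different part of cortical tissue in the sample cannot be told apart.

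Per library, the mean log2 CPM of the 275 striatum-enriched genes was 2.64 in KI F1, 2.91 in KI F2, 2.16 in KI F3, 2.14 in KI M1, 2.12 in KI M2, 2.85 in KI M3 and 2.60 in KI M4. It was 3.03 in WT F1, 2.65 in WT F2, 2.81 in WT M1 and 3.01 in WT M2. KI F3, M1 and M2 were low together, and the other 4 KI libraries lay within or just under the WT range. The group means were 2.49 ± 0.344 (SD, n = 7) in KI and 2.88 ± 0.180 (SD, n = 4) in WT, so the ranges overlapped. Only 2 of the 275 genes had every KI library below every WT library (0.727%, against 0.183% of all genes) and 1 had every KI library above (against 0.246% of all genes). That one is the gene described above that rose at 19 months.

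Cortex-enriched genes, defined in the same way, were higher in KI striatum. The definition gave 194 genes and 149 passed the count filter in striatum. Their median log2 difference was 0.34, with 121 of 149 above 0 (81.2%, against 52.8% of all genes), 9 higher at an unadjusted p under 0.05 (6.04%, against 0.973%) and 0 lower; edgeR called 0 of them after adjustment. Their mean log2 CPM was 0.82 in KI F1, 0.91 in KI F2, 1.24 in KI F3, 1.61 in KI M1, 2.04 in KI M2, 0.89 in KI M3 and 0.81 in KI M4. The WT values were 0.91 in F1, 0.97 in F2, 0.67 in M1 and 0.90 in M2. KI F3, M1 and M2 lay above all other libraries, and these are the same 3 that were lowest in striatum-enriched genes. The count filter used the same libraries, so a scarce cortex-enriched gene could pass through those where it was high. With at least 1 CPM in at least 4 libraries, 3 of 88 were higher at an unadjusted p under 0.05, against 122 of 14274 genes. Without a count filter, 12 of 193 were higher, against 181 of 21247 genes. Cerebellum-enriched genes were centred near 0, with a median of 0.0060 and 138 of 275 above 0.

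**Figure D3:**
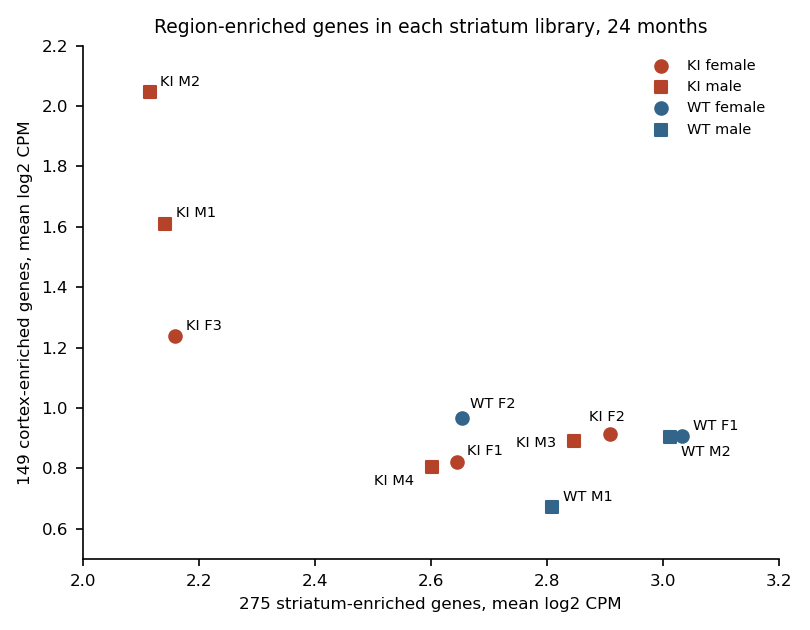
Mean log2 CPM of 275 striatum-enriched genes (horizontal axis) and of 149 cortex-enriched genes (vertical axis) in each of the 11 striatum libraries of 24 months, with genotype in colour and sex in shape. KI F3, M1 and M2 stand apart at the upper left. On the horizontal axis the other 4 KI libraries lie within or just under the WT range.

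The tissue labels held by this measure. In the cortex libraries of the same 11 animals the cortex-enriched genes stood between 3.86 and 3.97 on the log2 CPM scale. The highest striatal value, 2.02 in KI M2 on the joint scaling of both regions, was still far below that range. Striatum-enriched genes lay between -0.22 and 0.28 in those cortex libraries and at 2.09 or more in all striatum libraries. Without KI M1 and KI M2, the 2 libraries of highest cortex-enriched level, the median of the cortex-enriched genes was 0.05, with 78 of 138 above 0. The striatum-enriched median was then -0.28, with 231 of 275 below 0. At an unadjusted p under 0.05 there were 13 lower (4.73%, against 2.24% of all genes in that fit). Another 8 were higher, against 249 of 15674 genes. The fit of all libraries had 31 lower and 1 higher. With each library's cortex-enriched level as a covariate, which is built from the cortex-enriched genes themselves, the striatum-enriched median was -0.25, with 224 of 275 below 0. At an unadjusted p under 0.05, 17 were lower (6.18%, against 2.39% of all genes in that fit). Another 10 were higher, against 264 of 16067 genes. KI F3, at 2.16 in striatum-enriched genes and 1.24 in cortex-enriched genes, remained in the fit without KI M1 and KI M2. The part of cortical tissue in these values was not tested beyond these fits.

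The relation ran along the whole range of regional preference. Genes were ordered by their log2 ratio of striatum to cortex in WT libraries of 19 months. Below a ratio of -3 (124 genes) the median KI minus WT log2 difference was 0.42, and between -3 and -2 (199 genes) it was 0.26. Between -0.5 and 0 (5122 genes) and between 0 and 0.5 (4863 genes) the medians were 0.02 and 0.0038. Between 2 and 3 (259 genes) the median was -0.38, and above 3 (94 genes) it was -0.55, with 93.6% of genes below 0. Without KI M1 and KI M2 the medians on the cortical side were 0.02 and 0.03 in the 2 lowest bins. On the striatal side they were -0.26 and -0.31 in the 2 highest bins, still below 0. KI F3, which was also low in striatum-enriched genes, remained in that fit. No fit left out KI F3, M1 and M2 together.

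**Figure D4:**
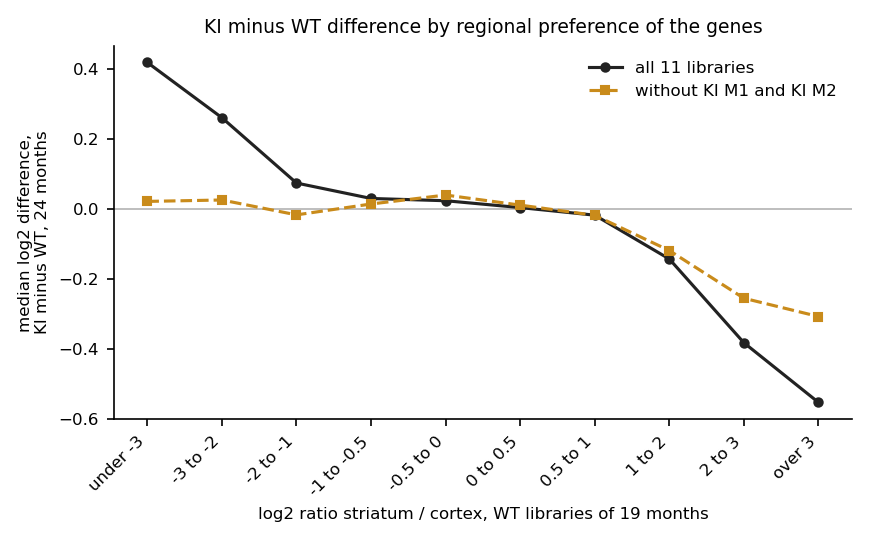
Median log2 difference, KI minus WT, at 24 months (vertical axis) for genes grouped by their log2 ratio of striatum to cortex in WT libraries of 19 months (horizontal axis). The solid line uses all 11 libraries and the dashed line leaves out KI M1 and KI M2 but keeps KI F3. The left side goes from 0.42 to 0.02 without these libraries and the right side from -0.55 to -0.31.

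Within the striatum-enriched genes, the shift was present in every class of expression level and was smallest in the least enriched class. The 187 genes enriched 4- to 8-fold had a median log2 difference of -0.39, the 59 genes enriched 8- to 16-fold -0.56, and the 29 genes enriched 16-fold or more -0.60. Without KI M1 and M2 these medians were -0.26, -0.39 and -0.30. Split into 4 equal classes by their level in WT striatum of 19 months, the medians were -0.45, -0.43, -0.40 and -0.49 from the scarcest to the most abundant. In the most abundant class, from 25.9 to 1966 CPM, 67 of 69 genes were below 0 and 15 were lower at an unadjusted p under 0.05 (21.7%, against 2.00% of all genes). The median SD over libraries of a striatum-enriched gene was 0.555 log2 units in KI and 0.562 in WT, against 0.242 and 0.225 for all genes. For cortex-enriched genes it was 0.673 in KI and 0.445 in WT, and 107 of 149 varied more among KI animals (71.8%, against 55.2% of all genes). KI F3, M1 and M2 held the highest levels of these genes, and the remaining KI libraries lay between 0.81 and 0.91 in mean log2 CPM. The SD without KI F3, M1 and M2 was not computed, and the 149 genes had passed a count filter that included these libraries.

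The number of genes at an unadjusted p under 0.05 rested on 1 WT animal. Without WT F2 it went from 470 to 2316, of which 1006 were higher and 1310 lower in KI. The smallest edgeR adjusted p in that fit was 0.0783, so 0 genes were called. Of the striatum-enriched genes 101 of 275 were then lower at an unadjusted p under 0.05 (36.7%, against 8.18% of all genes in that fit), yet their median was -0.44, close to that with all libraries. The count of 31 also went down, to 15 without WT M2 (5.45%, against 1.20% of all genes in that fit). It was 20 without WT F1 (7.27%, against 1.98%) and 21 without KI M2 (7.64%, against 1.82%). Without WT M1 it went up to 53 (19.3%, against 1.52%). Leaving out any other library gave between 282 (WT M2) and 586 (KI F1) genes, and without KI M4 and WT F2 together there were 2242. Leaving out each library in turn moved the striatum-enriched median between -0.53 (without KI F2) and -0.34 (without KI F3). The cortex-enriched median ranged from 0.21 without KI M2 and 0.23 without WT M1 to 0.45 without WT F2.

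**Figure D5:**
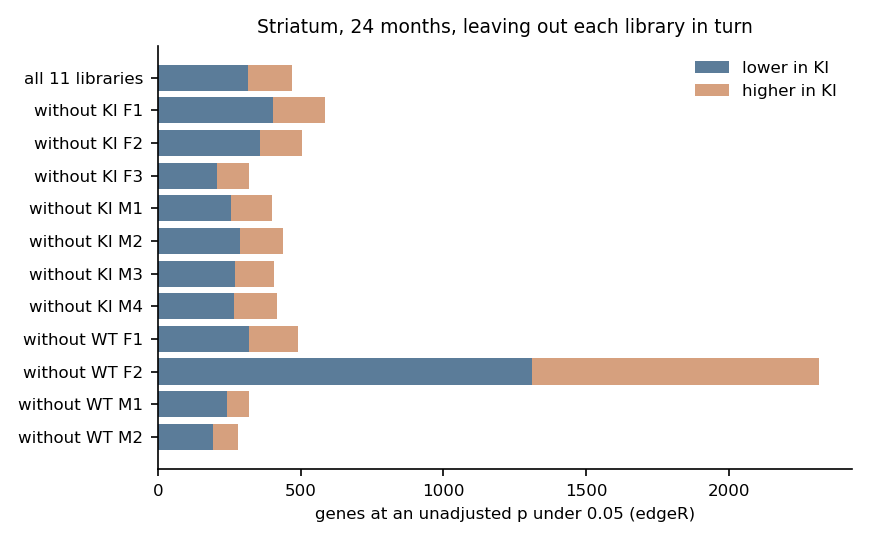
Number of genes at an unadjusted p under 0.05 in edgeR (horizontal axis, from 0) with all 11 striatum libraries of 24 months and after leaving out each library, split by direction. The bar without WT F2 reaches 2316 genes, and the other 10 fits that leave out a library lie between 282 and 586.

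Genes picked at 19 months tended to have the same direction at 24 months. For these shares each age was fitted separately, on its own animals. At 19 months the picked genes were 1.21% (higher) and 0.490% (lower) of all genes tested. Of 187 tested genes that were higher in KI at 19 months at an unadjusted p under 0.05, 150 were also higher at 24 months (80.2%, against 52.8% of all genes). Of 76 that were lower at 19 months, 56 were lower at 24 months (73.7%, against 47.2%). Leaving out the region-enriched genes gave 79.3% and 70.8%, and leaving out KI M1 and M2 gave 74.7% and 72.4%. Without WT F2 the shares were 78.7% and 63.2%, against 52.1% and 47.9% of all genes in that fit. Males alone gave 71.7% and 63.2%, against 52.8% and 47.2% of all genes. Females alone gave 67.6% and 80.3%, against 49.0% and 51.0%. Read the other way, 115 of 139 genes higher at 24 months were higher at 19 months (82.7%, against 53.4% of all genes), and 213 of 311 genes lower at 24 months were lower there (68.5%, against 46.6%).

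Gene length moved in the same direction at both ages. Across genes, the Spearman correlation of the log2 difference with effective transcript length was -0.116 at 24 months (14192 genes) and -0.243 at 19 months (14143 genes). It was -0.138 at 10 months (14139 genes), and -0.186 at 24 months without KI M1 and M2 (14172 genes). Among the 24-month libraries the correlation of a library's deviation with length ran from -0.272 in KI M3 to 0.148 in KI M2, and from -0.0234 to 0.0891 in WT. With each library's slope on length as a covariate, the shares with the 19-month direction were 83.0% and 80.3%, against 54.0% and 46.0% of all genes in that fit. The shares with the 10-month direction were 68.0% and 64.3%. The striatum-enriched median was -0.55. The part of length in these shares was not tested further.

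For genes picked at 10 months the shares were smaller and depended on WT F2. Of 419 genes higher in KI at 10 months, 273 were higher at 24 months (65.2%, against 52.8% of all genes). Of 483 lower at 10 months, 286 were lower (59.2%, against 47.2%). Without WT F2 these shares were 50.2% and 48.3%, against 52.1% and 47.9% of all genes in that fit. Males alone gave 48.4% and 34.5%, against 52.8% and 47.2% of all genes in that fit, so the genes lower at 10 months were mostly higher in KI males at 24 months. Females alone gave 70.7% and 82.0%, against 49.0% and 51.0% of all genes.

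The median of the striatum-enriched genes was -0.45 at 24 months and nearer to 0 in the younger cohorts. It was -0.07 at 10 months (178 of 275 genes below 0) and -0.08 at 19 months (204 of 275 below 0), where the WT libraries are those that defined the group. At 10 months the lower tail was nonetheless long, with the lower quartile at -0.44 and 55 genes below -0.5. There 27 of the 275 were lower at an unadjusted p under 0.05 (9.82%, against 3.13% of all genes), a share near the 11.3% of 24 months. Another 6 were higher (2.18%, against 2.72% of all genes). The mean log2 CPM of the group at 10 months was 2.79 ± 0.325 in KI and 3.03 ± 0.277 in WT (SD, n = 10 each), with overlapping ranges. The difference of the KI effect between 24 and 19 months had a median of -0.34 over these genes, with 243 of 275 below 0, against 0.0026 over all genes. At 24 months the lowest mean log2 CPM of the group was in KI F3, M1 and M2, at 2.16, 2.14 and 2.12. These libraries were also the highest in cortex-enriched genes. The age contrast was not refitted without them, so how far it rests on them was not tested. As a test per gene this age by genotype contrast called 0 of 16092 genes in edgeR (324 at an unadjusted p under 0.05), so no single gene was shown to differ between the ages. Cortex-enriched genes stood at 0.11 in striatum at 19 months (85 of 122 above 0) and at 0.09 at 10 months (94 of 140 above 0).

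In the other regions of the same brains the median of these genes was nearer to 0. The striatum-enriched genes that could be tested had a median of -0.08 in cortex (220 genes) and -0.06 in cerebellum (187 genes). By its definition the group is scarce outside striatum. Over the 275 genes its mean log2 CPM was only -0.22 to 0.28 in these cortex libraries. The contrasts within animals include these scarce values. Within animals, the difference of the KI effect between striatum and cortex had a median of -0.27 over the 275 genes, with 216 below 0, against 0.02 over all genes. For striatum against cerebellum the median was -0.35, with 213 below 0. Neither contrast was refitted without KI F3, M1 and M2, the striatum libraries lowest in these genes, so how far they rest on these libraries was not tested. Gene by gene, edgeR called 0 genes for striatum against cortex (246 at an unadjusted p under 0.05) and 1 for striatum against cerebellum (777).

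Cerebellum was the region with called genes at 24 months. There edgeR called 326 of 15538 genes (2.10%) in the same animals, against 0 of 15591 in cortex (784 had an unadjusted p under 0.05, and 4 passed in DESeq2). Of 180 genes that rose in cerebellum and were tested in striatum, 111 were higher in KI striatum (61.7%, against 52.8% of all genes). At an unadjusted p under 0.05, 9 of the 180 were higher there, against 154 of 15833 genes. Of 139 that fell, 88 were lower in striatum (63.3%, against 47.2%). Without KI M1 and M2 the counts were 92 of 180 and 82 of 138, so the share of the first did not exceed that of all genes. Read from striatum, the genes lower in KI at an unadjusted p under 0.05 were lower in the cortex of the same animals for 236 of 299 (78.9%, against 47.7% of all genes) and in their cerebellum for 205 of 295 (69.5%, against 50.3%). Those higher in KI were higher in cortex for 111 of 141 (78.7%, against 52.3%) and in cerebellum for 94 of 129 (72.9%, against 49.7%). The 3 regions share animals, so these shares are not independent of them.

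For a small share of genes the libraries of the genotypes did not overlap. All 7 KI libraries lay above all 4 WT libraries for 39 genes (0.246%) and below them for 29 (0.183%). Some genes separate in this way without any genotype difference, and whether these numbers exceed that was not tested. The median log2 difference of the 39 was 0.22 and that of the 29 was -0.41. At 19 months, 31 of the 36 tested genes of the first set were higher in KI (86.1%, against 53.4% of all genes) and 22 of the 29 of the second set were lower (75.9%, against 46.6%). At 10 months the counts were 23 of 37 and 15 of 29, near the shares of all genes for the second set. In the cortex of the same animals 32 of 36 (88.9%, against 52.3% of all genes) and 24 of 29 (82.8%, against 47.7%) had the striatal direction. In their cerebellum the counts were 28 of 36 (77.8%, against 49.7%) and 18 of 29 (62.1%, against 50.3%). The regions share animals, so these counts are not independent of the striatal ones.

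Sexes were compared within the 24-month striatum. In edgeR 0 of 16067 genes were called for the sex by genotype term, with 732 at an unadjusted p under 0.05. By DESeq2 there were 5. Females alone (3 KI, 2 WT) gave 258 genes at an unadjusted p under 0.05 and 0 called. Among the striatum-enriched genes 41 were lower at that level (14.9%, against 1.18% of all genes in that fit). Males alone (4 KI, 2 WT) gave 1521 and 1 called, and 96 of the striatum-enriched genes were lower at that level (34.9%, against 5.98%). The animals of highest cortex-enriched level, KI M1 and M2, were both male, and WT F2 was female, so sex and these libraries cannot be told apart.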

How the data were processed

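Frozen tissue went through a Qiagen total RNA kit and standard Illumina library preparation, per the labels' protocols. The authors deposited estimated counts for 32883 Ensembl identifiers, with 8.12% of values not whole; these were rounded. A second deposited table, called FPKM, sums to 1000000 in every library and was treated as TPM. Per the file headers the reference was Rat.B6.0. Aligner, counter and annotation: not given in the sources used here. No column was left without a sample.

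Genotypes were compared with edgeR 4.0.16 in R 4.3.3 (TMM factors, filterByExpr, robust quasi-likelihood test, sex as covariate), adjusted by Benjamini-Hochberg and called under 0.05. Region by genotype terms had a block for the animal. CPM use TMM factors, and log2 CPM a prior count of 2. Alternatives used DESeq2 1.42.0, limma 3.58.1 on log2 of TPM plus 0.1 or 1, other filters and normalisation, other covariates, a replicate block, each sex, and leaving out libraries. Scripts were tested on simulated data. Each p-value reflects the spread between separate animals.

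Members and lists were chosen with earlier results of these data known. The rule for named genes took the genes of smallest p in each direction that reached a log2 CPM of 1 on average, and those called at younger ages; without symbols, 2 identifiers per direction are printed. The 31 lists of gene symbols could not be matched and were not tested. Effective length is the ratio of counts to TPM, for genes with a mean of at least 1 TPM.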

Additional observations from a re-analysis of the deposited data

How the results depend on the processing

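In 24 of 27 alternatives 0 genes were called in striatum at 24 months; DESeq2 called 5, the fit with all striatum ages 1, and males alone 1, which was not ENSRNOG00000011073. DESeq2 called 4 genes in cortex, 674 in cerebellum against 326 in edgeR, 3 in striatum at 10 months against 1, and 5 for sex by genotype. RLE factors moved no count by over 1.5 times. The log2 differences of the printed identifiers kept their sign in all 27: 0.77 to 1.04 for ENSRNOG00000011096, 0.74 to 0.97 for ENSRNOG00000010694, -0.79 to -0.54 for ENSRNOG00000011073 and -1.13 to -0.35 for ENSRNOG00000014426. The second gene that rose at 19 months reversed at 24 months in females alone (-0.018), without KI M1 and M2 (-0.0039) and with the cortex-enriched level as a covariate (-0.040); the cause was not tested. With that covariate the cortex-enriched median was -0.0065, as the covariate is built from those genes. The striatum-enriched median was -0.58 for 88 genes enriched 8-fold and -0.39 for groups from WT libraries of 10 months. Leaving out KI M4 and WT F2, chosen after seeing the data, gave medians of -0.46 and 0.52 for striatum- and cortex-enriched genes. Replicate numbers within sex do not pair the animals: deviations of same-numbered libraries correlated at 0.01, -0.52, -0.39 and 0.03. A fit with the replicate block called 0 genes, with 220 at an unadjusted p under 0.05. Among them 4 of 275 striatum-enriched genes were lower (1.45%, against 0.637% of all genes in that fit). With 4 WT animals and a median SE of 0.157, single genes with log2 differences near that SE were not detectable. Differences several times their SE were not called either. ENSRNOG00000011096, at 0.89 ± 0.182 (SE), had an edgeR adjusted p of 0.998. The absence of calls therefore does not exclude differences well above the median SE.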
